A study of Mus musculus with 6 samples.

Results

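The genes of the synaptic vesicle and the presynaptic active zone were followed in RNA captured from the dentate gyrus (DG) and the CA1 of the adult mouse hippocampus. They were chosen by symbol from gene families of vesicle release and recycling (synaptotagmins, synapsins, SNARE proteins and their chaperones, complexins, SV2 proteins, Rims, Unc13, Cadps, Erc, Ppfia, Rab3 and dynamins, with Bsn, Pclo, Nsf, Syp and Synpr), and 74 of the 7507 genes listed for these libraries matched. The symbols also matched 20 relatives that work mainly in other membrane traffic, such as the Golgi and endosomal syntaxins, Snap23, Snap29 and the Rab30 to Rab39 genes, and these are counted as a group of their own beside the 54 presynaptic genes.

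BALI (light-driven ligation of spatial barcodes) was run on 3 coronal sections of fresh frozen adult brain, in a protocol that labels RNA and open chromatin in the same tissue. In each section the DG, which the labels name as the granular layer, and the CA1 were illuminated in turn and ligated with their own index as the last digit of a 4-digit barcode, so that each section gave a DG and a CA1 RNA library and the 6 libraries are paired by section. The age is 12 weeks in the sample annotation and 8 to 12 months in the growth protocol. Strain, sex and whether the sections came from separate animals are not given in the sources used here, and no treatment is listed. P-values therefore measure only the spread between these sections. The chromatin accessibility data were not analysed here.

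At a presynaptic terminal, transmitter is loaded into vesicles that are tethered to the membrane of the axon, held at an active zone by large scaffold proteins and made ready for fusion by priming factors. SNARE proteins on the vesicle and on the cell membrane zip together, synaptotagmins trigger fusion when calcium enters, and complexins hold and then release the fusion machinery. The SNARE complexes are afterwards taken apart, and the vesicle membrane is recovered by endocytosis. Granule cells of the DG and pyramidal cells of the CA1 both use this machinery, and mRNA in their cell body layers encodes proteins that act at distant terminals.

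Values are UMIs (unique molecular identifiers, each counting 1 captured RNA molecule) assigned to a gene, and shares are percentages of all gene-assigned UMIs of a library. The libraries were shallow. Sections 1, 2 and 3 gave 17999, 4572 and 6298 UMIs from the DG and 9357, 2844 and 4865 from the CA1. The DG was the deeper library of every section, by 1.92, 1.61 and 1.29 times, so depth and region cannot be told apart by UMI counts alone. Comparisons of level between regions therefore use shares or fits that allow for library size. Counts of genes seen in a region depend on its depth. A limit of 3 UMIs, which a count of 0 allows, corresponds to a share of 0.0167% in the deepest library and 0.105% in the shallowest. All such limits and intervals cover counting error only.

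Markers of the labelled regions were near the limit of detection. Of 9 DG granule cell markers 3 were analysed here (Calb1, Lct and Rfx3), and their summed share was 0% to 0.044% in DG and 0% to 0.085% in CA1, higher in DG in 0 of 3 sections. Of 9 CA1 pyramidal cell markers 8 were analysed, at 0.028% to 0.044% in DG and 0.035% to 0.123% in CA1, with 1 of 3 sections higher in DG. All 6 general neuronal markers (Rbfox3, Map2, Tubb3, Nefl, Nefm and Eno2) were detected, at 0.172% to 0.262% in DG and 0.171% to 0.211% in CA1, with a mean within-section log2 ratio of DG over CA1 of 0.16 (SD 0.15, n = 3) and a higher share in DG in 3 of 3 sections. Oligodendrocyte markers (6 of 7 listed) ran the other way, at 0.481% to 0.789% in DG and 0.668% to 0.994% in CA1, a mean log2 ratio of -0.32 (SD 0.16) with 0 of 3 sections higher in DG. Astrocyte markers (4 of 6) had a mean log2 ratio of 0.019 (SD 0.27). Microglial (2 of 7) and endothelial (2 of 4) markers held 2 and 4 UMIs in all.

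The 74 genes held 889 of the 45935 UMIs, 1.94% of the RNA counted against 0.986% of the genes listed. A few genes carried most of this. Syt11, Syt1, Syn2 and Cplx2 together held 440 UMIs, 49.5% of the total, and the 19 genes with at least 10 UMIs held 79.98%. These 19 were 25.7% of the 74, whereas 13.3% of all genes listed (999) reached 10 UMIs. The remaining 55 genes had fewer than 10 UMIs over the 6 libraries, and 17 of them had a single UMI. A UMI was seen in both regions for 45 genes, in DG alone for 18 and in CA1 alone for 11. The DG was sequenced deeper, and no such counts over all genes listed were made. No gene seen in 1 region alone had more than 6 UMIs. Genes at 1 or 2 UMIs included some that are abundant in mature neurons, such as Vamp2, the main vesicle SNARE, with 1 UMI, and Stx1a, its partner on the cell membrane, with 2.

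The summed share of the 74 genes did not differ between regions beyond the spread between sections. It was 1.94%, 2.01% and 2.00% in the DG of sections 1, 2 and 3 and 2.00%, 1.69% and 1.77% in CA1, that is 1.99% ± 0.036 and 1.82% ± 0.161 (SD, n = 3). The DG was higher in sections 2 and 3 and the CA1 in section 1, and the ranges overlapped. The mean within-section log2 ratio was 0.13 with an SD of 0.15, with 2 of 3 sections higher in DG. In the shallowest library the 95% exact binomial interval ran from 1.25% to 2.23% and in the deepest from 1.75% to 2.16%. For the 54 presynaptic genes alone the shares were 1.87%, 1.95% and 1.92% in DG and 1.85%, 1.65% and 1.62% in CA1. Every DG library thus lay above every CA1 library, but section 1 was nearly equal, with a log2 ratio of 0.014. The mean log2 ratio of these 54 genes was 0.16 (SD 0.13), with the DG higher in 3 of 3 sections, beside 0.16 and 3 of 3 for the neuronal markers. The part of neuronal content in this ratio was not tested, and in RNA from a region of tissue fewer cells of a type and less RNA per cell cannot be told apart.

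**Figure D1:**
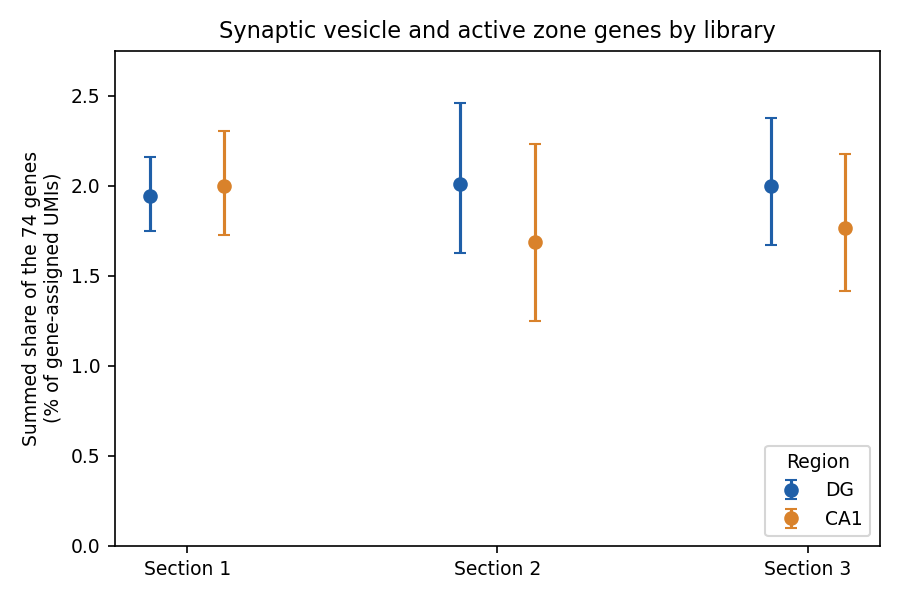
Summed share of the 74 synaptic vesicle and active zone genes in each library (vertical axis, percent of gene-assigned UMIs) by section (horizontal axis), with the DG in blue and the CA1 in orange. Points are single libraries and bars their 95% exact binomial intervals; the intervals of the 2 regions overlap in every section.

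The deepest library of each region showed the most genes and the shallowest library of all the fewest, but the order by depth was not strict. The DG of section 2 showed more genes than that of section 3 from fewer UMIs. A UMI was found for 51, 33 and 31 of the 74 in DG libraries and for 47, 18 and 31 in CA1 libraries. At the depth of the shallowest library, 2844 UMIs, the expected numbers were 22.5, 25.4 and 21.6 in DG and 25.9, 18.0 and 22.3 in CA1, so at a common depth the libraries lay within a range of 18.0 to 25.9 genes and the regions overlapped.

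By role, the synaptotagmins and complexins, counted together as calcium sensors and complexins, were the largest group in every library with Syt11 included, and no group was separated between regions by more than its spread except the vesicle membrane proteins and synapsins. The 12 calcium sensors and complexins held 428 UMIs and 0.933% ± 0.111 of the DG and 0.857% ± 0.069 of the CA1 (SD, n = 3), with a mean log2 ratio of 0.12 (SD 0.26). Syt11, a synaptotagmin that does not itself bind calcium, supplied 198 of these UMIs, and without it the group held 18 UMIs in the DG of section 2, where the active zone group held 19. The 15 active zone scaffolds and priming factors held 146 UMIs, at 0.309% ± 0.105 and 0.338% ± 0.045, and their ratio was -0.18 (SD 0.37). The 9 vesicle membrane proteins and synapsins held 115 UMIs, at 0.250%, 0.328% and 0.286% in DG and 0.214%, 0.211% and 0.226% in CA1, so that every DG library lay above every CA1 library and the ratio was 0.40 (SD 0.21). Syn2 made up most of that group, and without it the ratio was 1.19, since Syn2 itself had a ratio near 0. In CA1 the group held 20, 6 and 11 UMIs, of which Syn2 supplied 13, 5 and 7. The ratio without Syn2 thus rests on few CA1 molecules. The 13 SNARE proteins and chaperones held 108 UMIs, at 0.280% ± 0.072 and 0.197% ± 0.049, a ratio of 0.51 (SD 0.58). The 3 dynamins (30 UMIs) had a ratio of 0.15 (SD 1.01) and the 20 genes of other membrane traffic (44 UMIs) a ratio of -0.30 (SD 1.04). Rab3a and Rab3c, the vesicle GTPases, held 18 UMIs and none in the CA1 of section 2. These are descriptions of chosen groups and carry no test. Groups of other genes were not compared, so how often a group of this size separates the regions was not tested.

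**Figure D2:**
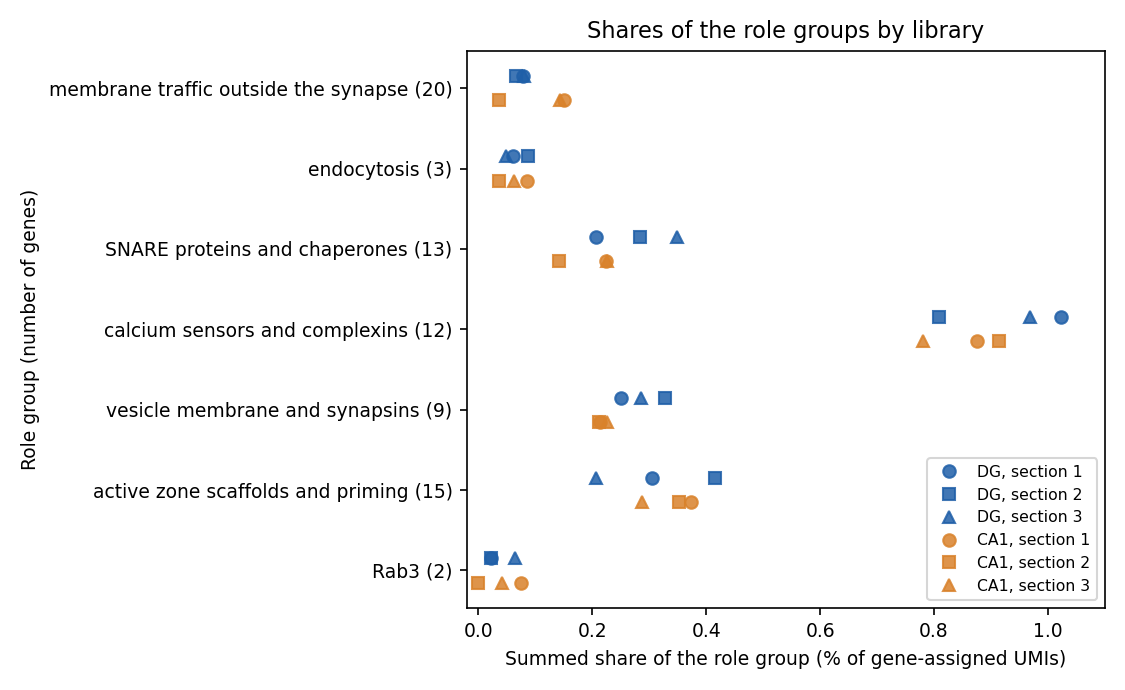
Summed share of each role group (horizontal axis, percent of gene-assigned UMIs) in the 6 libraries, with the DG in blue, the CA1 in orange and a marker shape for each section; the number of genes is in parentheses. Calcium sensors and complexins lie between 0.78% and 1.02% in all 6 libraries, and the vesicle membrane group is the 1 group in which all DG points lie above all CA1 points.

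Among the calcium sensors, Syt11 (mm10, chromosome 3, 88744699 to 88775159, minus strand), a synaptotagmin that does not bind calcium and is also made outside neurons, had 82, 19 and 25 UMIs in DG and 39, 13 and 20 in CA1. It was the most abundant of the 74 genes in all 6 libraries, and its share hardly varied, 0.423% ± 0.030 in DG and 0.428% ± 0.025 in CA1 (SD, n = 3). Syt1 (chromosome 10, 108497650 to 109010980, minus strand), the fast calcium sensor of vesicle fusion, had 40, 8 and 18 UMIs in DG and 19, 11 and 15 in CA1. Its share was higher in CA1 in sections 2 and 3 and the regions overlapped, at 0.228% ± 0.056 and 0.299% ± 0.092. Cplx2 (chromosome 13, 54301964 to 54383923, plus strand), a complexin that clamps and then promotes SNARE-driven fusion, had 33, 5 and 11 UMIs in DG and 13, 1 and 2 in CA1. Its share was higher in DG in 3 of 3 sections, 0.156% ± 0.040 against 0.072% ± 0.058, but the CA1 of section 1 (0.139%) lay above the DG of section 2 (0.109%). Syt7 (chromosome 19, 10388802 to 10453181, plus strand), a slow sensor of high calcium affinity, had 17, 2 and 2 UMIs in DG and 5, 0 and 0 in CA1. It too was higher in DG in every section, while the CA1 of section 1 lay above the DG of sections 2 and 3. The other 8 genes of this group had 1 to 8 UMIs each, led by Cplx1 with 1, 1 and 2 in DG and 2, 1 and 1 in CA1.

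The vesicle membrane group was led by Syn2 (chromosome 6, 115134902 to 115282626, plus strand), a synapsin that ties vesicles into clusters, with 25, 9 and 7 UMIs in DG and 13, 5 and 7 in CA1. Its share differed between regions by less than the spread, 0.149% ± 0.044 and 0.153% ± 0.020. Sv2a, a vesicle glycoprotein that binds the antiepileptic levetiracetam, had 3, 5 and 5 UMIs in DG and 1, 0 and 3 in CA1. It was higher in DG in 3 of 3 sections, although with 1 UMI behind a CA1 value the ratio of section 1 rests on very few molecules. Synpr (chromosome 14, 13284780 to 13615469, plus strand), synaptoporin, a vesicle protein of the synaptophysin family found in granule cell axons, had 5, 0 and 1 UMIs in DG and 0 in each CA1 library. Against a limit of 3 UMIs over the 3 CA1 libraries its level was 1.18-fold higher in DG. This takes its 6 DG UMIs as exact and is not a lower bound, and 5 of these 6 UMIs came from section 1. Without that section 1 UMI was left and no fold can be given, and without section 3 the fold was 0.901. The other synaptophysin relative, Syp, had 4, 0 and 1 UMIs in DG and 0, 1 and 0 in CA1. Syn1 had 5 UMIs in DG and 0 in CA1, a difference that the limit of 3 UMIs does not separate. Its exons overlap those of Araf on the other strand, and strand was ignored in counting. Reads inside that overlap cannot be ascribed to either gene, and the effect on the count of Syn1 was not tested.

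Of the SNARE proteins and chaperones, Stxbp5l, a tomosyn that holds back SNARE assembly, had the most UMIs, 13, 3 and 7 in DG and 6, 2 and 3 in CA1. Snap25, the membrane SNARE of regulated release, followed with 6, 2 and 6 in DG and 7, 1 and 4 in CA1. Both overlapped between regions. Nsf (chromosome 11, 103821782 to 103954056, minus strand), the ATPase that takes spent SNARE complexes apart, had 9, 1 and 5 UMIs in DG and 2, 0 and 0 in CA1. Its DG shares of 0.050%, 0.0219% and 0.0794% all lay above its CA1 shares of 0.0214%, 0% and 0%, but the closest pair, the DG of section 2 and the CA1 of section 1, rested on 1 and 2 UMIs. Of the 13 genes of this group 9 had 1 to 4 UMIs. A UMI was seen in DG alone for 5 and in CA1 alone for 2, and the DG library was the deeper in every section.

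Active zone and priming genes gave differences in both directions. Unc13a, the main priming factor, had 12, 4 and 1 UMIs in DG and 3, 2 and 2 in CA1. Pclo (piccolo), a giant scaffold of the active zone, had 4, 4 and 6 in DG and 5, 0 and 0 in CA1. Rims2, a scaffold that links vesicles to calcium channels, had 5, 2 and 0 in DG and 6, 1 and 2 in CA1. These 3 genes were not on the same side in every section. Erc2 (chromosome 14, 27622275 to 28478537, plus strand), an ELKS family scaffold that binds Rims and bassoon, had 5, 0 and 0 UMIs in DG and 3, 2 and 4 in CA1. Its shares of 0.0278%, 0% and 0% in DG lay below all of its CA1 shares, 0.0321%, 0.0703% and 0.0822%, so that it ran against the direction of Nsf. Ppfia2, a liprin scaffold, had 8, 1 and 0 UMIs in DG and 2, 0 and 0 in CA1, and its relative Ppfia3 had 3, 0 and 5 in DG and 0, 1 and 0 in CA1. Bsn (bassoon) had 7 UMIs in all.

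The 2 Cadps genes, which encode priming factors of dense-core and synaptic vesicles, differed in where they were seen. Cadps (chromosome 14, 12372560 to 12823339, minus strand) had 6, 4 and 1 UMIs in DG and 3, 0 and 0 in CA1, and Cadps2 (chromosome 6, 23262773 to 23841175, minus strand) had 0 in each DG library and 4, 1 and 1 in CA1. Cadps thus made up 11 of 11 UMIs of the family in DG (100%, 95% exact binomial interval 71.5% to 100%) and 3 of 9 in CA1 (33.3%, 7.49% to 70.1%), and the intervals were just apart. They overlapped when any of the 3 sections was left out, and without section 1 the counts were 5 of 5 and 0 of 2. Against a limit of 3 UMIs over the 3 DG libraries, Cadps2 was 3.38-fold higher in CA1, and 2.85-fold without section 2 and 3.08-fold without section 3. These folds take the CA1 UMIs of Cadps2 as exact and are not lower bounds. Section 1 gave 4 of its 6 UMIs, and the 2 UMIs left without it were under the limit, so that no fold can be given. The intervals cover the counting of pooled molecules and not the spread between sections, and the pair was singled out after the values of all families had been seen. The dynamins are GTPases that cut vesicles from the membrane. Dnm1, the neuronal dynamin, had 7, 2 and 1 UMIs in DG and 3, 1 and 1 in CA1. Dnm3 (chromosome 1, 161982450 to 162478321, minus strand) had 4, 2 and 2 in DG and 2, 0 and 1 in CA1, and its DG shares of 0.0222% to 0.0437% lay just above its CA1 shares of 0% to 0.0214%. Dnm2, the widely expressed dynamin, was at 0 of 18 dynamin UMIs in DG (0%, 0% to 18.5%) and 4 of 12 in CA1 (33.3%, 9.92% to 65.1%). These intervals overlapped. Exons of Dnm2 overlap those of Tmed1 on the other strand, and reads inside that overlap cannot be ascribed to either gene.

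In the other families compared the leading gene was the same in both regions. Syn2 made up 85.4% of synapsin UMIs in DG and 92.6% in CA1, and Cplx2 made up 49 of 53 complexin UMIs in DG and 16 of 20 in CA1. Erc2 made up 83.3% and 81.8% of its family. Rims2 held 87.5% and 69.2% of the Rims UMIs, Sv2a 76.5% and 66.7% of the SV2 UMIs and Unc13a 73.9% and 63.6% of the Unc13 UMIs. All of these pairs had overlapping 95% intervals. The liprins had no such leader in CA1, where 7 UMIs were spread over 4 genes. Rab3c had 4, 1 and 2 UMIs in DG and 6, 0 and 1 in CA1, and Rab3a, the best known vesicle Rab, had 0, 0 and 2 and 1, 0 and 1. In the group of other membrane traffic no gene passed 8 UMIs, and the highest was Rab3gap1, a subunit of the complex that switches off Rab3, with 0, 0 and 2 in DG and 5, 0 and 1 in CA1. Snap47, a SNARE found on several membranes, came next with 3, 0 and 1 in DG and 1, 0 and 0 in CA1.

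**Figure D3:**
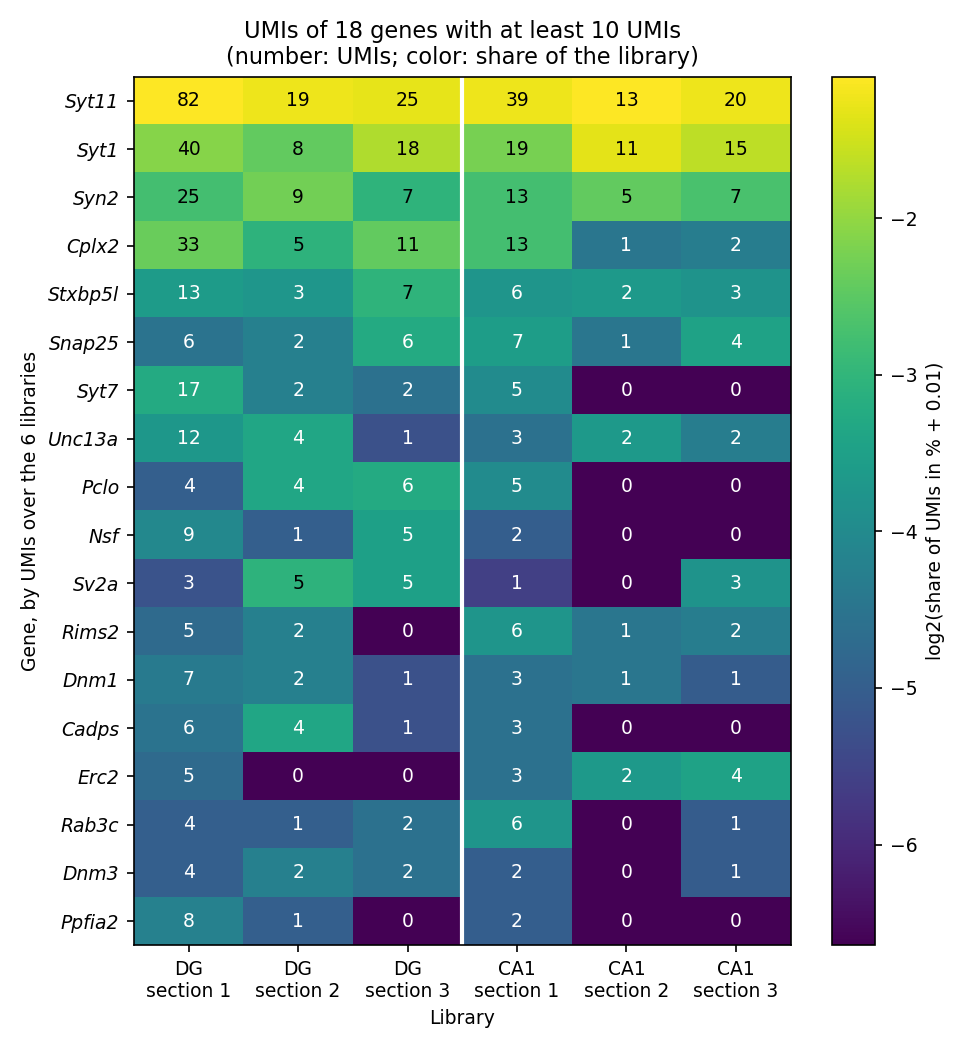
UMIs of 18 synaptic vesicle and active zone genes with at least 10 UMIs (rows, most abundant at the top) in the 6 libraries (columns), as numbers, with color for the share of the library on a log2 scale after adding 0.01%. Syt11 leads every column, from 13 to 82 UMIs, and 8 of the 18 genes drawn are at 0 in the CA1 of section 2, the shallowest library.

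UMIs per kb of exon over all 6 libraries were also set side by side between genes. The paper describes poly-T priming of reverse transcription and a UMI appended with the last index. By that design a cDNA carries its UMI whatever its length, so level is read from the order by UMIs. Whether UMIs rise with transcript length here was not tested. Syt11 was first on both scales, at 43.4 UMIs per kb, then Syt1 at 21.4, Syn2 at 11.5, Cplx2 at 11.2 and Snap25 at 11.1. Snap25 thus stood beside Syn2 and Cplx2 per kb although it had fewer UMIs than either, since its exons are shorter. Nsf (4.51 UMIs per kb), Sv2a (4.34), Syt7 (3.70) and Dnm1 (3.63) followed. Pclo was the lowest of the 19 at 0.860 UMIs per kb over 22.1 kb of exon, with 40 of the 74 genes above it and 33 below, Bsn among the latter at 0.439.

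Region was compared by edgeR's quasi-likelihood test across genes. Its filter on low counts left 43 genes, of which 0 were called (0%) at an adjusted p under 0.05, with 3 at an unadjusted p under 0.05 and 0 called by DESeq2. Of the 74 genes only Syt11 and Syt1 passed the filter. The edgeR log2 fold change of DG over CA1 was 0.14 (SE 0.26, adjusted p = 0.910) for Syt11 and -0.12 (SE 0.35, adjusted p = 0.910) for Syt1, so 0 of the 2 were called, and their median was 0.0066 beside -0.022 over the 43 genes, or -0.11 beside -0.14 with DESeq2 size factors. In the same test on the 999 genes with at least 10 UMIs, 0 were called (0%), and 52 had an unadjusted p under 0.05. Of the 19 synaptic genes in it 0 were called. Nsf had the smallest unadjusted edgeR p, 0.0444 (log2 fold change 2.08, SE 1.03, adjusted p = 0.880), followed by Cplx2 with 0.0535 (0.91, SE 0.47, adjusted p = 0.880) and Erc2 with 0.0901 (-1.59, SE 0.94, adjusted p = 0.978). The edgeR log2 fold change was above 0 for 13 of the 19, with a median of 0.38, and the median over all 999 genes was 0.076.

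Ratios of shares within sections gave a different center. With 0.5 added to each UMI count, 9 of the 19 genes had a mean log2 ratio above 0 and their median was -0.018, beside 45.2% above 0 and a median of -0.070 over the 999 genes. The sign of the median thus changed with the scale. Adding 0.5 pulls genes with few UMIs toward the shallower library, here the CA1. On this scale the highest mean ratios were those of Nsf (1.66, SD 1.24), Pclo (1.53, SD 2.43), Syt7 (1.44, SD 0.64) and Cadps (1.22, SD 1.27), and among the lowest were those of Erc2 (-2.28, SD 1.74), Rims2 (-1.28, SD 1.38) and Syt1 (-0.38, SD 0.66). The SD between sections was larger than the mean for Pclo, Cadps, Rims2 and Syt1. It was smaller than the mean for Nsf, Syt7, Erc2 and Cplx2 (1.13, SD 0.73).

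**Figure D4:**
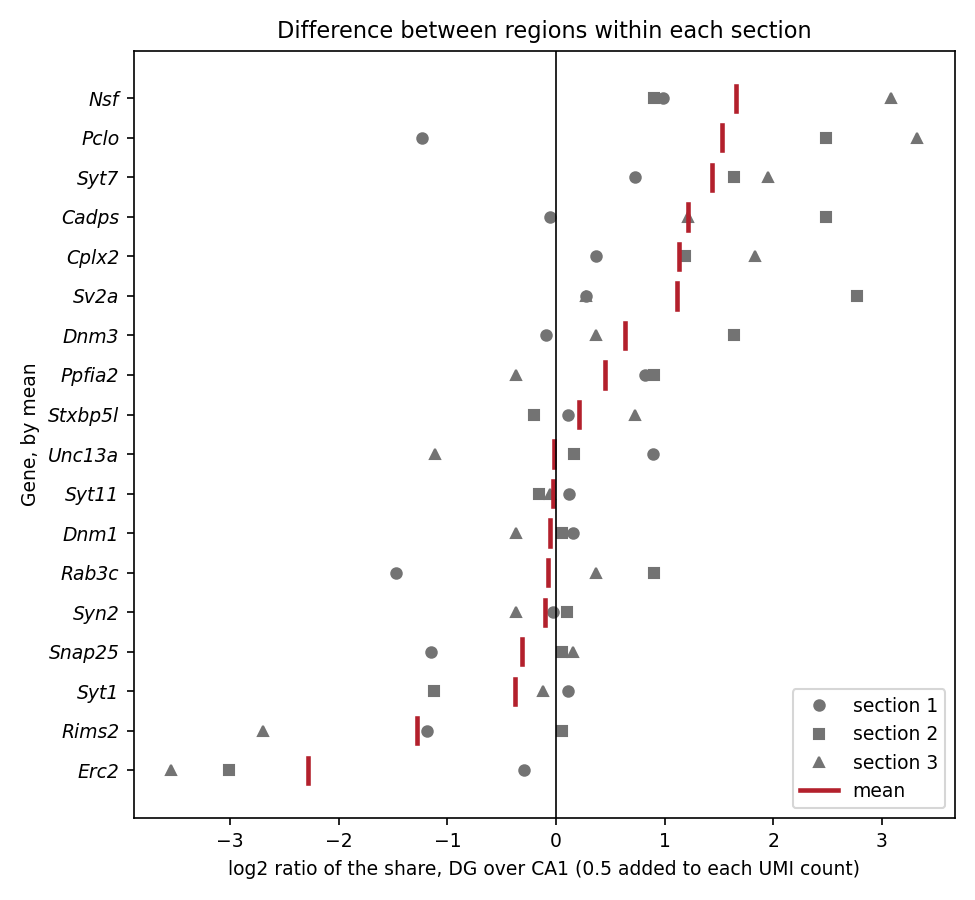
Log2 ratio of the share in DG over that in CA1 within each section, with 0.5 added to each UMI count (horizontal axis), for 18 genes with at least 10 UMIs (rows); gray markers are sections 1, 2 and 3 and red bars their mean. Nsf is at the top with a mean of 1.66 and Erc2 at the bottom with -2.28, while Syt11 and Syn2 sit close to 0 in all sections.

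The shares themselves were then sorted by whether the regions overlapped. Of the 19 genes, 2 (10.5%) had all DG shares above all CA1 shares, Nsf and Dnm3, where 7.11% of the 999 genes did. The reverse held for 1 gene (5.26%), Erc2, where 5.11% of all genes did. Both shares were near the background. A share higher in DG in 3 of 3 sections was found for 6 of the 19 (31.6%), Nsf, Cplx2, Cadps, Syt7, Dnm3 and Sv2a, against 13.8% of all genes, and a share higher in CA1 in 3 of 3 for Erc2 alone (5.26%), against 11.8%. The exact permutation test of 3 against 3 libraries cannot go below p = 0.1 (two-sided), which Nsf, Dnm3 and Erc2 shared with 122 of the 999 genes in all (12.2%), and the smallest p adjusted over all 999 genes was 0.819. Cplx2 had an exact p of 0.2, Syt1 of 0.3 and Syt11 of 0.7. The CA1 library was the shallower in every section. Of the 19 genes, 0, 9 and 5 were at 0 UMIs in the CA1 of sections 1, 2 and 3, and 0, 2 and 3 in the DG. A share of 0 lies below the share that a single UMI gives in the other region. The part of depth in these counts was not tested.

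Each section was also left out in turn. With 2 libraries per region in place of 3 these counts can only stay or rise, for all genes alike. A rise alone does not show that they depended on a section. Without section 1, the regions did not overlap for 8 of the 19 genes on the DG side (17.6% of all genes) and 2 on the CA1 side (14.9%). Without section 2 the numbers were 4 (16.5%) and 3 (14.4%), and without section 3 they were 6 (20.7%) and 1 (14.7%). Genes higher in DG in every section left numbered 9, 7 and 9 (22.5%, 26.5% and 28.4% of all genes). Nsf and Dnm3 stayed on the DG side and Erc2 on the CA1 side whichever section was left out. This had to be so, since they did not overlap over all sections, and it adds no further evidence.

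Other genes of release and recycling, outside the chosen families, differed between regions by less than the spread in their summed share. Of 40 such genes 33 were listed, with 349 UMIs, and their summed share was 0.900%, 0.612% and 0.667% in DG and 0.631%, 0.738% and 0.761% in CA1, a mean log2 ratio of 0.018 (SD 0.43). Of the 12 with at least 10 UMIs, 6 had a mean log2 ratio above 0. All DG shares lay above all CA1 shares for 2 of the 12 (16.7%), where 7.11% of the 999 genes did so. The reverse held for 0 of the 12, where it held for 5.11% of the 999. These counts were not tested, and the lowest DG count of each of the 2 genes was 1 UMI. Those 2 were Cltc, the clathrin heavy chain of coated vesicles, with 8, 1 and 2 UMIs in DG and 1, 0 and 1 in CA1, and Prrt2, a SNARE-binding regulator of release, with 7, 2 and 1 in DG and 0 in each CA1 library. The most abundant was Pacsin1, an endocytic adaptor that binds dynamin, with 20, 3 and 7 in DG and 10, 4 and 8 in CA1. Slc17a7, the vesicular glutamate transporter, had 16, 2 and 3 in DG and 6, 2 and 1 in CA1.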

How the data were processed

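Counts per gene were deposited for DG and CA1 RNA libraries of 3 sections. The authors extracted UMIs of 6 bases with UMI-tools, assigned reads to regions by barcode with cutadapt 4.1, mapped them to mm10 with STAR 2.7.9a, assigned them to exons regardless of strand with featureCounts (Subread 2.0.3) and counted UMIs per gene. The deposited counts hold 1 more than the UMIs in every gene and library, so 1 was subtracted, and the line of column totals was dropped. The authors' CPM and ratio columns, the latter comparing DG with CA1, were not used.

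The 74 genes and all lists were chosen with earlier results of these data known. DG was compared with CA1 by edgeR 4.0.16 (R 4.3.3; quasi-likelihood test, TMM, filterByExpr with a minimum count of 10, library sizes of all gene-assigned UMIs, Benjamini-Hochberg adjustment, threshold 0.05), with DESeq2 1.42.0 as an alternative, and by exact permutation tests and Clopper-Pearson intervals in scipy 1.17.1. The edgeR fit with filterByExpr was first run on counts simulated with a chosen spread and without pairing by section. That run does not show how the fit performs at the spread of these libraries or with other filters. Named genes were the 20 with most UMIs, those passing the filter, the 4 highest and 4 lowest mean ratios, genes without overlap between regions, Synpr and the leading 2 of each role group. Cadps2, Dnm2, Syn1, Syp, Stx1a, Vamp2, Bsn and Cplx1, and the genes named outside the 74, were named after their values were seen. Values of some single genes are not reported here, but the counts and sums include them. Positions and exon lengths came from RefSeq on GRCm38.p6, the assembly of mm10, which held all 74, and 9 of them overlap exons of a gene on the other strand. Both libraries of a section share their tissue, so section numbers pair them, and the correlations of their deviations from the region means over 999 genes were 0.155, 0.065 and 0.089. Some alternatives were chosen after seeing the data. These left out a section for overlap counts, single-gene ratios, family shares and folds against the limit, or added 1 in place of 0.5.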

Additional observations from a re-analysis of the deposited data

How the results depend on the processing

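Of 17 alternatives to the edgeR fit (other size factors and filters, DESeq2, counts as deposited, the replicate block, and leaving out each section or library), 0 called a synaptic gene. The replicate block, which pairs the libraries by section, called 0 genes with the usual filter and 1 gene, Prkce, which is not among the 74, with the filter of 10 UMIs, and changed no other call. With that block and the usual filter the log2 fold change was 0.15 for Syt11 and -0.059 for Syt1. With the block and the filter of 10 UMIs, Cplx2 had an unadjusted edgeR p of 0.0358 (log2 fold change 0.85, adjusted p = 0.894). Nsf had an unadjusted edgeR p of 0.0537 there (2.08, adjusted p = 0.894), so the order of these 2 genes depended on the block. Leaving out libraries moved Syt11 between -0.036 (without DG replicate 1) and 0.21, and Syt1 between -0.35 and 0.029 (without section 2), so neither had a stable sign. DESeq2 size factors moved the median of all genes tested from -0.022 to -0.14 and that of Syt11 and Syt1 from 0.0066 to -0.11. The summed share kept its sign in 9 of 9 alternatives (0.065 to 0.22). Role groups kept theirs in 44 of 47 and single genes in 69 of 76. Depth limits most of the list: 55 of the 74 genes had under 10 UMIs, too few to compare singly, and the DG library was the deeper in every section.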
